A study of Homo sapiens with 2 samples.

Results

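The genes described here are the chemokine receptor gene CCR1, its close relative CCR2 and the chemokine genes CCL3, CCL4, CCL5 and CCL7, as measured in LP-1 cells, an established human multiple myeloma line, with and without added HIF-2α. They were taken as every probe set that the array annotation assigns to exactly 1 of these 6 gene symbols. This gave 7 probe sets, 2 for CCR2 and 1 for each other gene, and the 6 genes are part of 18377 genes measured in all. The HIF2A cells are LP-1 stably infected with the vector pRUF-IRES-GFP carrying the full-length human cDNA of HIF-2α, a transcription factor subunit that oxygen keeps in check and that the gene EPAS1 encodes. The vector control cells are LP-1 with the same vector and no insert. Both are cultured lines, and the labels do not say whether each is a clone or a pool of infected cells. Each group was measured on 1 whole-transcript Affymetrix array, so no difference below has a replicate check, an error or a p-value.

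CCR1 and CCR2 are receptors with 7 membrane passes that couple to inhibitory G proteins and steer cells towards the chemokines they bind. CCR1 is best known from monocytes, macrophages and osteoclast precursors, and it also occurs on malignant plasma cells, where its ligand CCL3 is known for activating osteoclasts and for myeloma bone disease. CCL3, CCL5 and CCL7 are agonists of CCR1, CCL7 also binds CCR2, and CCL4, a close relative of CCL3, binds CCR1 only weakly. HIF-2α works as a pair with ARNT, and the pair is known for binding short DNA elements with the core letters ACGTG or GCGTG.

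CCR1 and CCR2 lie close together in a cluster of chemokine receptor genes on chromosome 3, and the start regions of both are shown because, as given below, CCR1 differed between the arrays while CCR2 stayed in the background range of both. The sequences are the 250 bases before each gene's annotated start, read in the direction of transcription, from RefSeq on GRCh38.p14. CCR1 is transcribed from the minus strand, here chr3:46208314-46208563, and CCR2 from the plus strand, here chr3:46353861-46354110. Capitals mark each CG pair, which any copy of the core letters must contain.
CCR1: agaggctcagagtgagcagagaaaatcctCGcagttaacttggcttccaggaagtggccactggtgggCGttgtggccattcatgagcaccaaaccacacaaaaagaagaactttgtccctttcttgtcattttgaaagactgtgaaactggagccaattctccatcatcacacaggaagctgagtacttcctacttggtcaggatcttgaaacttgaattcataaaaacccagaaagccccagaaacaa
CCR2: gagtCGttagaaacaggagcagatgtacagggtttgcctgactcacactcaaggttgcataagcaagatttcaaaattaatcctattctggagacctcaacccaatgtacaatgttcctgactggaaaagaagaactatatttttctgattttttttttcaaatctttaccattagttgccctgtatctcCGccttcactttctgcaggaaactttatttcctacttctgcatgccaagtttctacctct
Over the full window of 300 bases, from 250 before to 50 after the start, CCR1 had 3 CG pairs and CCR2 had 2, where the median of 35116 RefSeq windows was 14. ACGTG and GCGTG, searched on both strands, had no match in the window of either gene. At least 1 of these letter strings was present in 48.4% of all windows, ACGTG in 21.4% and GCGTG in 36.5%. The table held windows for 4 of the 6 genes. The CCL7 window had no match, and among 3 windows listed for CCL3, which overlap, 1 held ACGTG on both strands at 1 place. No binding was measured in this study, and the matches describe letters in these windows only.

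The array signals are log2 values, so a difference of 1 is a 2-fold change, and all differences are HIF2A minus vector control. As a measure of background, 359 olfactory receptor genes had a 95th percentile of 3.58 in the HIF2A array and 3.59 in the vector control. The filter on dim signals kept a gene whose higher value of the 2 was at least 4.01, the middle of the probe sets' mean signals. Of the 11469 genes past it, 0.706% were 2-fold or more higher in the HIF2A array and 0.732% were 2-fold or more lower. Their median difference was 0.03, and their robust SD, from the median absolute deviation, was 0.34. EPAS1, the added gene, stood at 9.05 in the HIF2A array and 3.70 in the vector control, and its difference of 5.35 was the largest of all. As for the labelled cell type, 11 of 12 plasma cell markers passed the filter. So did 11469 of all 18377 genes and 6 of 14 monocyte and macrophage markers, so passing it says little about cell type. JCHAIN, the gene of the chain that joins immunoglobulin units, had 12.55 in the HIF2A array and 12.59 in the vector control, while the plasma cell surface receptor genes SLAMF7 and TNFRSF17 had differences of -2.39 and -1.03.

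CCR1 was the only 1 of the 6 genes that differed at least 2-fold. Among all 18377 genes, dim ones included, 0.914% differed that much in either direction. Its signal reached 6.90 with HIF2A and 4.21 with the vector control. Both values lie above the olfactory receptor level of their array, so the difference is given as it stands and not as a bound. The vector control value lies only a little above the filter level of 4.01. Whether that value reflects transcript or background was not tested. The difference was 2.69, or 6.45-fold, which is 7.89 robust SDs of the genes past the filter. It ranked number 2 of 11469, behind EPAS1, and 3 of the 18377 genes differed by at least this much in either direction.

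CCR2, the receptor of CCL7 and other monocyte attractants, stayed in the background range in both arrays. Its brighter probe set had 2.61 in the HIF2A array and 3.05 in the vector control, a difference of -0.44. The other had 2.62 in the HIF2A array and 2.91 in the vector control, a difference of -0.29. All 4 values lie below the olfactory receptor level, so they give no fold and no order between the arrays. A difference of at least 0.44 in size was found in 15.9% of all genes.

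CCL3, which encodes the CCR1 agonist MIP-1α, was the only ligand gene past the filter, which it passed through its HIF2A value alone. It had 4.43 in the HIF2A array and 3.97 in the vector control, both above the olfactory receptor level, a difference of 0.46 or 1.38-fold. Of the genes past the filter, 19.4% differed by at least as much in either direction. The annotation gives 3 further probe sets to CCL3 together with its near-identical copies CCL3L1 and CCL3L3. All 3 had 4.59 in the HIF2A array and 4.61 in the vector control, a difference of -0.02. The probe set of CCL3 alone and the shared probe sets thus gave different answers, and the small difference of CCL3 is uncertain.

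CCL4, which encodes MIP-1β, had 2.72 in the HIF2A array and 2.43 in the vector control, both in the background range. Its difference was 0.29. The 3 probe sets it shares with CCL4L1 and CCL4L2 had 3.01 in the HIF2A array, against 3.20 to 3.24 in the vector control, with differences of -0.19 to -0.23. The probe sets disagree in sign and all lie below the olfactory receptor level, so no direction can be given for CCL4.

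CCL5, also known as RANTES, is an agonist of CCR1 made chiefly by T cells and platelets. It had 3.48 in the HIF2A array, just below the olfactory receptor level, and 3.92 in the vector control, above it. Set against that level, CCL5 was at least 1.27-fold lower with HIF2A. That bound, -0.34, is about the size of the robust SD of the genes past the filter, 0.34. On the deposited values the difference was -0.44, and 15.9% of all genes differed by at least as much in either direction. With 1 array per group, this small difference is uncertain. CCL5 did not reach the filter.

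CCL7, or MCP-3, a ligand of both CCR1 and CCR2, had 2.81 in the HIF2A array and 3.18 in the vector control. Both are in the background range and give no order between the arrays. None of the 4 ligand genes differed 2-fold, where 0.914% of all 18377 genes did. Of all 6 genes, 3 lay in the background range in both arrays, 2 passed the filter and 1 differed at least 2-fold.

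**Figure D1:**
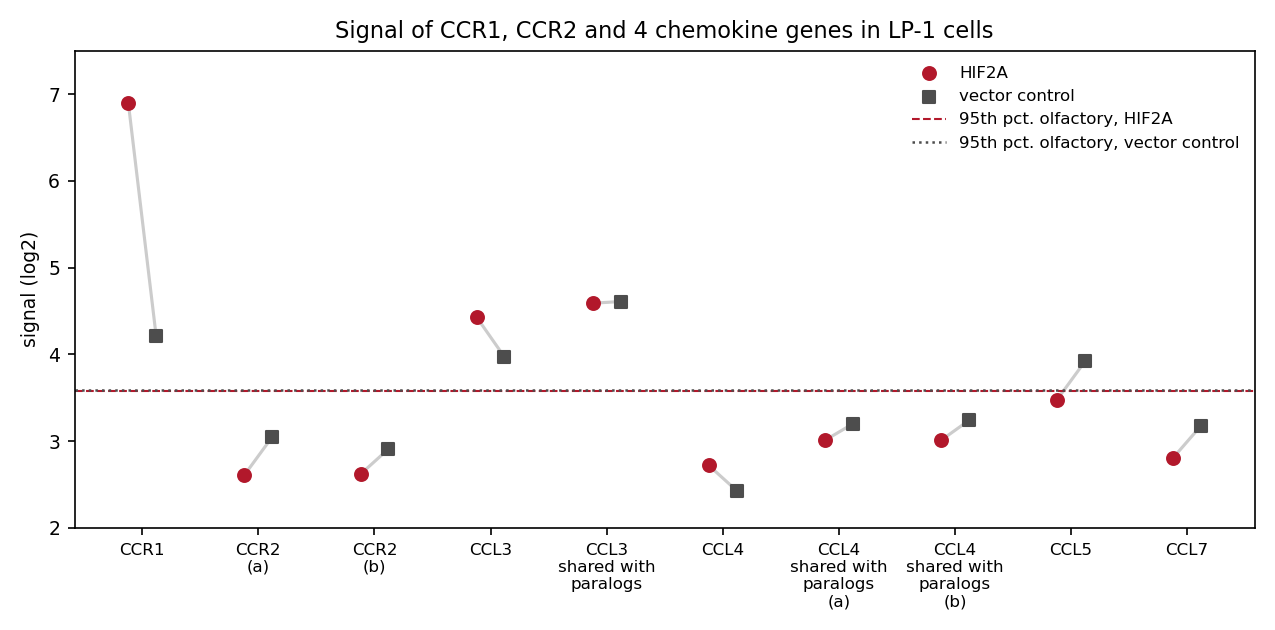
Signal (log2) of each probe set of the 6 genes, HIF2A as circles and vector control as squares, 1 array each. Letters tell apart probe sets of 1 gene, and of shared probe sets with equal values 1 is drawn. Lines mark the 95th percentile of 359 olfactory receptor genes in each array. CCR1 stands at 6.90 (HIF2A) and 4.21 (vector control), while the probe sets of CCR2, CCL4 and CCL7 lie below both lines.

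**Figure D2:**
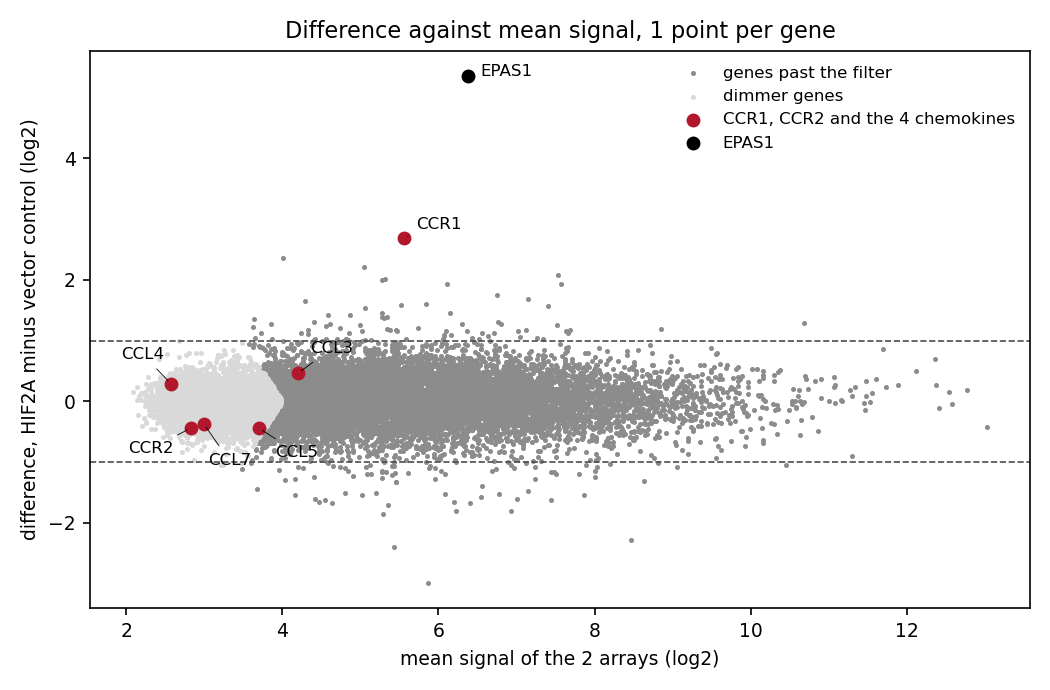
Difference (log2, HIF2A minus vector control) against the mean signal of the 2 arrays (log2), 1 point for each of 18377 genes. Dark grey points are the 11469 genes past the filter, and dashed lines mark 2-fold. CCR1, at 2.69, lies above every gene but EPAS1, and CCR2, CCL3, CCL4, CCL5 and CCL7 lie within the main cloud.

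The genes with differences nearest to that of CCR1 were taken as its likeness over the 2 arrays. Above it stood only EPAS1. By the deposited values, the 3 genes next below were THEMIS, a gene of T cell receptor signalling, CXCL12, the chemokine gene known for holding plasma cells in bone marrow, and BNIP3, a mitophagy receptor gene and known HIF target. THEMIS had 5.19 in the HIF2A array and 2.83 in the vector control, and since the second value is in the background range it is given as at least 3.03-fold higher. That bound is a smaller difference, 1.60, than those of CXCL12 and BNIP3, so the place of THEMIS in this order is not settled. CXCL12 had 6.15 in the HIF2A array and 3.94 in the vector control, and its difference lay 0.48 below that of CCR1. BNIP3 had 8.56 in the HIF2A array and 6.49 in the vector control, 0.62 below. With 2 arrays, likeness means only a difference of similar size.

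None of the other measured receptor genes of the family differed 2-fold. Over all 18377 genes 0.914% did, so a count of 0 among so few genes is near that share. Of 21 other chemokine receptor genes listed, 19 were measured and 4 passed the filter, and 0 of those differed by that much in either direction. Their median difference was 0.05, against 0.03 over all genes past the filter. CXCR4, the receptor of CXCL12, had 7.46 in the HIF2A array and 7.13 in the vector control. CCR7, which guides cells to lymph nodes, had 4.32 in the HIF2A array and 4.04 in the vector control. The mucosal homing receptor gene CCR10 had 7.71 in the HIF2A array and 7.90 in the vector control. CXCR3, the receptor of CXCL9, CXCL10 and CXCL11, had 3.91 in the HIF2A array and 4.12 in the vector control. The 4 genes thus split evenly, 2 higher and 2 lower, each within 2-fold. Over all 19, dim ones included, differences ran from -0.39 for the scavenging receptor gene ACKR2 to 0.33 for CXCR4.

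Further ligands of CCR1 and CCR2 were in the background range. CCL8, CCL16 and CCL23, which bind CCR1, had differences of -0.24, -0.36 and 0.03, and all 3 lay below the olfactory receptor level in both arrays. CCL2, the main ligand of CCR2, had 3.30 in the HIF2A array and 3.47 in the vector control, also below that level. The CCR1 ligand genes CCL14 and CCL15 have only a probe set that the annotation assigns to several symbols and were not analysed here.

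Among the other chemokine genes, 36 of 44 listed were measured and 7 passed the filter, with a median of 0.05. CXCL12 was the only 1 of them that differed at least 2-fold, at 4.63-fold higher. Over all genes past the filter 0.706% were 2-fold or more higher. CXCL12 passed the filter through its HIF2A value alone, 6.15 against 3.94 in the vector control. Without the filter, 1 of the 36 differed at least 2-fold in either direction, where 0.914% of all 18377 genes did. CXCL10, an interferon-induced ligand of CXCR3, had 7.99 in the HIF2A array and 8.01 in the vector control. The neutrophil attractant genes CXCL5, CXCL3 and CXCL1 had differences of 0.30, 0.12 and -0.35. The T cell attractant genes CCL25 and CCL17 had differences of 0.05 and -0.21.

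**Figure D3:**
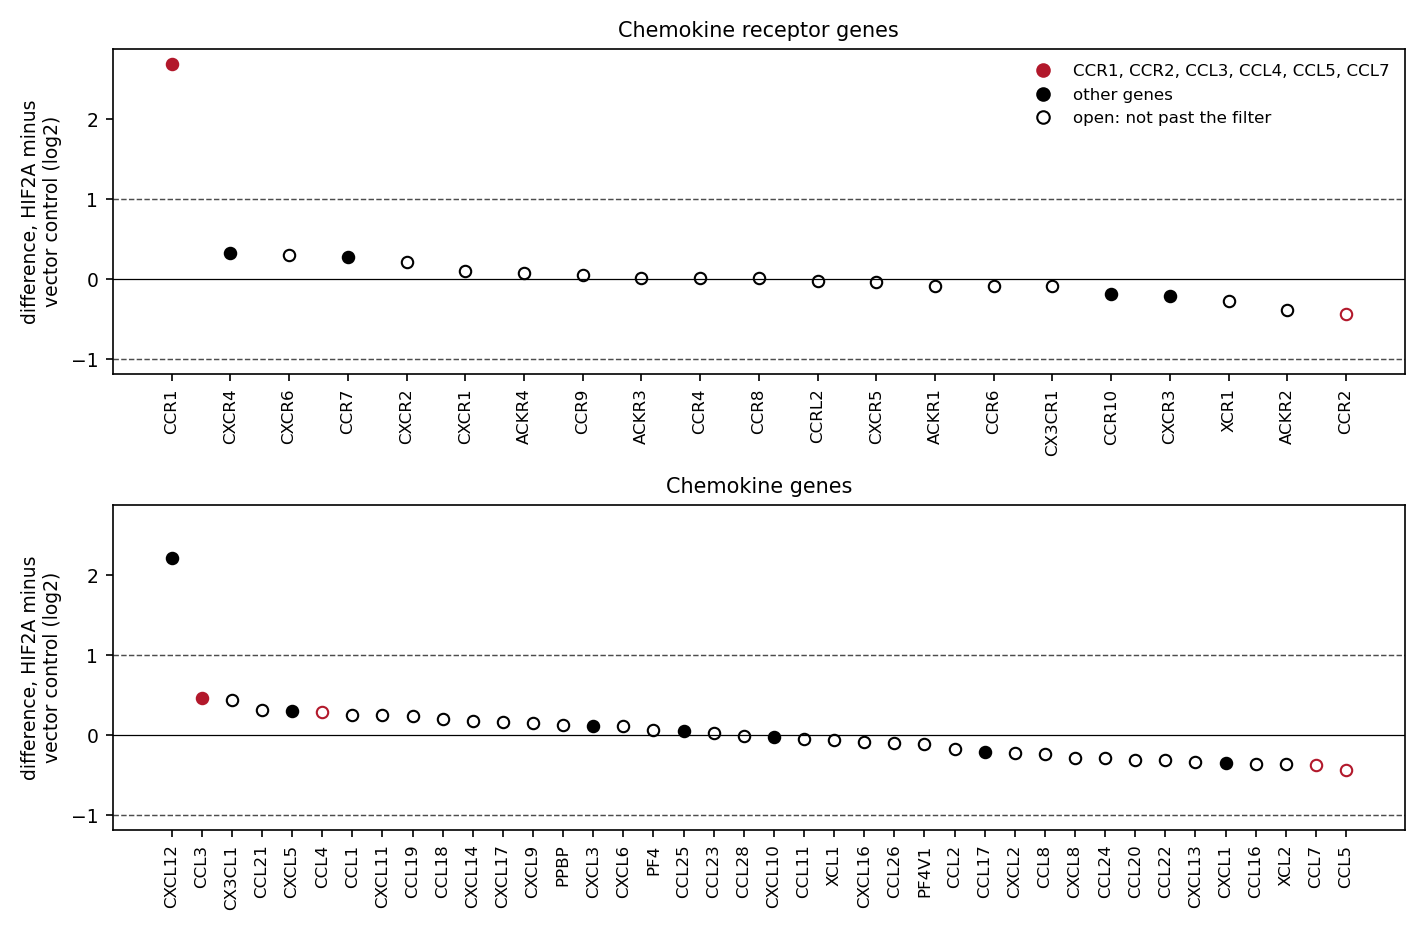
Difference (log2, HIF2A minus vector control) of 21 chemokine receptor genes, upper panel, and 40 chemokine genes, lower panel, in order of difference. Filled points passed the filter and open points did not, the 6 genes described here are red, and dashed lines mark 2-fold. CCR1 at 2.69 and CXCL12 at 2.21 are the only points beyond a dashed line.

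None of the nearest measured neighbours of CCR1 on its chromosome differed 2-fold, where 0.914% of all 18377 genes did. RefSeq served for the order of genes only. Among the 5 measured genes on each side of CCR1, CCR2 apart, differences ran from -0.27 for the receptor gene XCR1 to 0.51 for LZTFL1, a gene of ciliary transport, with a median of 0.11. Only 2 of these 9 neighbours passed the filter, LZTFL1 and FYCO1. FYCO1, which encodes an adaptor that moves autophagosomes, had 0.21. The receptor genes CCR9 and CXCR6 before CCR1 had 0.05 and 0.30, and CCRL2, on the far side of CCR2, had -0.02. The median of the 20 nearest genes past the filter was 0.16, and CCR1 exceeded it by 2.53.

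All 4 ligand genes lie on chromosome 17. CCL7 sits among dim genes, and its neighbours in the cluster, CCL2, CCL11, CCL8 and CCL1, had differences of -0.17, -0.05, -0.24 and 0.25. From CCL5 to CCL4 the measured genes RDM1, LYZL6, CCL16, CCL23 and CCL18 had -0.51, -0.02, -0.36, 0.03 and 0.20. TAF15, which encodes an RNA-binding protein and lies 2 measured genes before CCL5, was lower in the HIF2A array, at 8.31 against 9.32. It was 1 of 15 neighbours of this stretch at least 2-fold apart, where 0.914% of all 18377 genes were. Medians of the 20 nearest genes past the filter were -0.14 for CCL5 and -0.18 for CCL3 and CCL4.

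**Figure D4:**
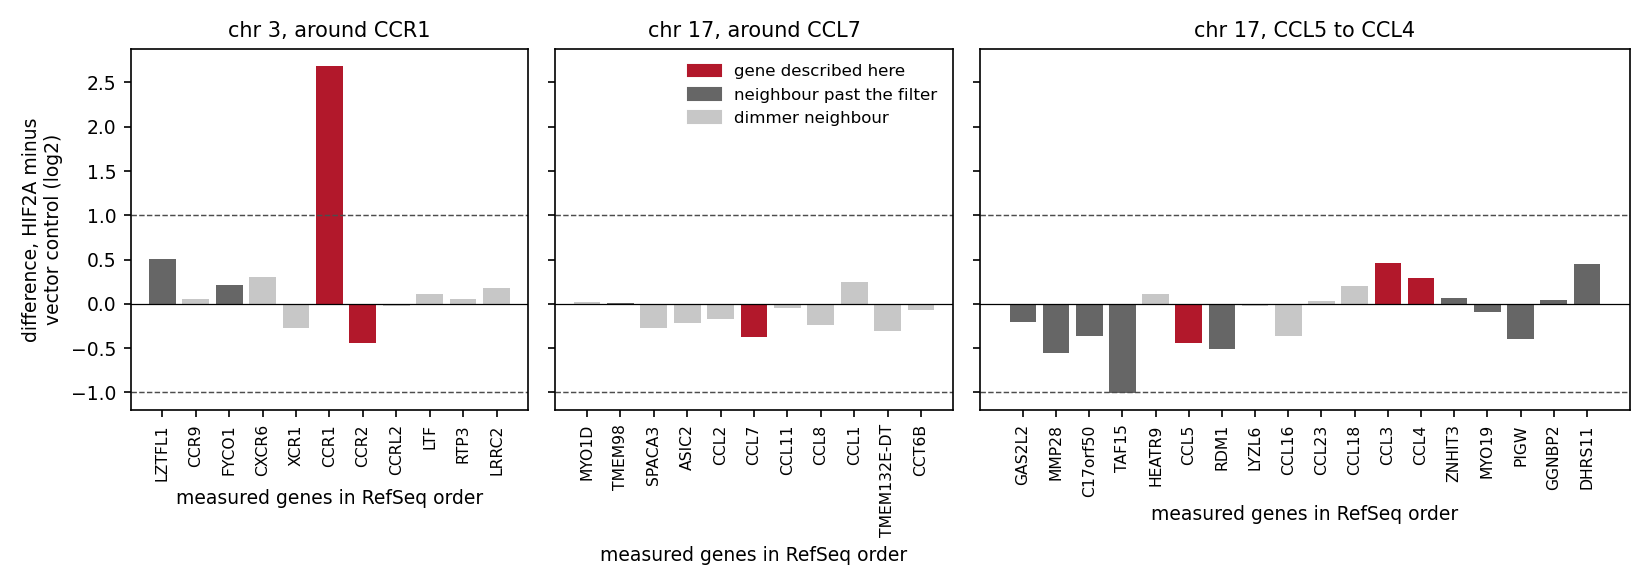
Difference (log2, HIF2A minus vector control) of measured genes in RefSeq order around CCR1 and CCR2, around CCL7, and from CCL5 to CCL4 with 5 genes on each side. The genes described here are red, dark bars are neighbours past the filter, light bars are dimmer ones, and dashed lines mark 2-fold. The bar of CCR1 reaches 2.69, and its nearest measured neighbours lie between -0.44 and 0.51.

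Genes that carry the signal of CCR1 and related receptors inside the cell went both ways, and none differed 2-fold, where 0.914% of all genes did. Of 57 listed, 53 were measured and 36 passed the filter, of which 24 were higher and 12 lower in the HIF2A array. Over all genes past the filter 6036 of 11469 were higher. With the dim members included, 30 of the 53 were higher and 23 lower, with a median of 0.12, so the tally moves with the filter. The median of the 36 was 0.25, against 0.03 over all genes past the filter, and 1.5-fold was reached by 4 members upwards and by 2 downwards. Of all 11469 genes past the filter, 650 reached 1.5-fold upwards and 546 downwards. The receptor kinase gene GRK6, whose product phosphorylates active receptors, had 6.57 in the HIF2A array and 5.63 in the vector control, the largest difference of the list at 0.94. PIK3CB, a phosphoinositide 3-kinase gene, had 6.60 and 5.71, and RAC2, a GTPase gene of blood cell migration, had 8.83 and 8.0, in the HIF2A array and the vector control. At the other end RAC1, the widely expressed relative of RAC2, had 4.59 in the HIF2A array and 5.25 in the vector control. ELMO1, which helps activate RAC proteins, had 6.25 in the HIF2A array and 6.78 in the vector control. PIK3R5, a regulatory subunit gene of the kinase that responds to G protein βγ subunits, had 3.54 in the HIF2A array, in the background range, and 4.17 in the vector control. The inhibitory G protein α genes, picked for their role after their values were seen, went both ways, with GNAI2 at 0.31, GNAI1 at -0.33 and GNAI3 at -0.41.

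Markers of monocytes and macrophages, which normally carry CCR1, and of osteoclasts lay close to 0 in difference or in the background range. T and NK cell markers, with a median of 0.34 over 3 genes past the filter, are given further below. Of 14 monocyte and macrophage markers, 6 passed the filter, with 2 higher, 4 lower and a median of -0.07. The highest difference among the 6 was 0.15, for the lipopolysaccharide receptor gene CD14, and the lowest -0.22, for the scavenger receptor gene MARCO. CD68 had 0.08 and SPI1, the gene of the myeloid transcription factor PU.1, had -0.08. CEBPA and FCN1, a myeloid regulator gene and a monocyte lectin gene, had -0.10 and -0.06. The mean signal of the 14 was 3.81 in the HIF2A array and 3.79 in the vector control, their sums were 53.3 and 53.0, and 6 of them, among them LYZ and CD163, lay below the olfactory receptor level in both arrays. Of 8 osteoclast markers 7 were measured, of which 4 lay below that level in both arrays, and NFATC1, which passed the filter, had -0.05. In RNA of whole cultures, fewer cells with a transcript and less transcript per cell cannot be told apart.

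**Figure D5:**
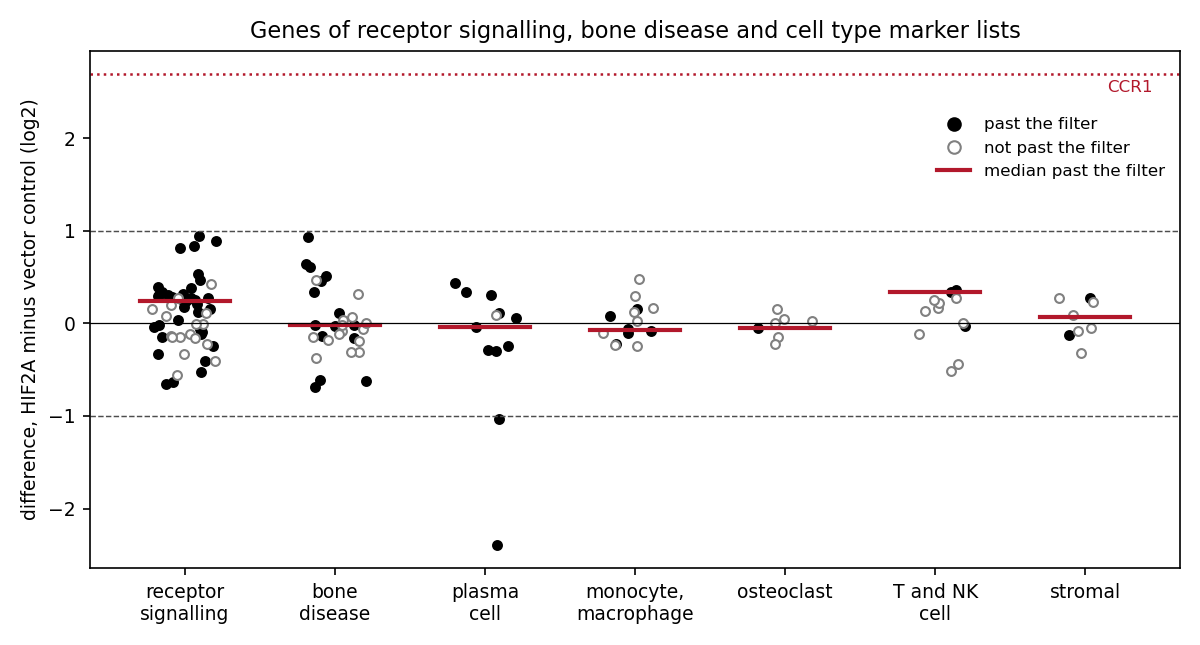
Difference (log2, HIF2A minus vector control) of each gene in 7 lists, with the median of genes past the filter as a red bar, filled points for genes past the filter and open points for dimmer ones. Dashed lines mark 2-fold and the dotted line the difference of CCR1. The medians lie between -0.07 and 0.34, and no listed gene reaches the dotted line.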

How the data were processed

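The data are 1 log2 signal per probe set and array for 28869 probe sets. Per the submitters' processing notes, the authors made the deposited log2 values with Affymetrix Expression Console. No source used here names the algorithm, its version or any normalization between arrays. Base 2 was inferred from the maximum of 13.97, since a natural log of a 16-bit scanner reading cannot pass 11.09.

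Of the probe sets, 19310 carry 1 gene symbol, 1752 carry several and 7807 none. Symbols were updated by Entrez number to RefSeq of GRCh38.p14, where 19279 matched. Each gene took its probe set with the highest mean, a choice that concerns 685 genes. No source used here names the build behind the array annotation, so coordinates are given for the RefSeq start windows only. With 1 array per group there is no test. Differences are HIF2A minus vector control, counted at 2-fold. Where 1 array lay below the olfactory receptor 95th percentile, a fold is a bound against it.

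All 6 genes, EPAS1 and every other chemokine or receptor gene past the filter are named. So are up to 3 genes at each end of every other list, the genes nearest to CCR1 in difference, and neighbours on the chromosome. The genes, lists and rules were chosen with earlier results of these data known. Where values outside these rules are given (JCHAIN, FCN1, LYZ, CD163, DKK1, IL6, ACKR2, the GNAI genes and chemokine genes under the filter), they were chosen after their values were seen. The counting was tested on simulated data. Alternatives were quantile, median and loess centring (span 0.3), 32 added to each linear value, a floor at the olfactory receptor level, other filters, other probe sets, folds of 1.5 and 3, subtracting neighbours and, chosen after seeing the data, probe sets shared with paralogs. Python 3.11.15, numpy 2.4.6, pandas 2.3.3, statsmodels 0.14.6 and matplotlib 3.10.9 were used.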

Additional observations from a re-analysis of the deposited data

How the results depend on the processing

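CCR1 kept its sign in 8 alternatives, from 1.58 to 2.71, and its lowest value came from adding 32 to each linear value, which shrinks dim signals by construction. Some of the 8 could not move CCR1 from 2.69. It has 1 probe set, so the mean or the dimmest of a gene's probe sets changes nothing, and it lies above the floor in both arrays. That offset also gave -0.080 for CCR2. The floor at the olfactory receptor level gave -0.011 for CCR2, -0.011 for CCL7 and, against 0.29 on the deposited values, -0.011 for CCL4. These 3 genes lie under the floor in both arrays, so the value is only the gap between the 2 floors. The probe sets shared with paralogs gave -0.02 for CCL3 and -0.23 for CCL4, and the cause of that disagreement was not tested. CCL5 lay between -0.44 and -0.13 in its 8 alternatives, and it too has 1 probe set, so the choice among probe sets could not change it. Medians of lists changed mostly with the genes that entered. The other chemokine receptors came to -0.06 when the filter was lowered to the 25th percentile, and the other chemokines to 1.10 with the filter at the 75th, where CXCL12 and CXCL10 alone remain. The receptor signalling list came to 0.12 with 32 added and with no filter, and to 0.14 with the 25th percentile filter. T and NK cell markers came to 0.12, 0.15 and 0.20 in these 3 settings, and plasma cell markers to -0.27 after quantile normalization, whose cause was not tested. Of the genes past the filter, 18 were higher and 24 lower with 32 added, 650 and 546 at 1.5-fold, and 14 and 15 at 3-fold. No paired analysis was possible because each group has 1 array, and for the same reason no replicate could be left out. Dim signal limits CCR2, CCL4 and CCL7, for which neither array rises above background.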

Other observations

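Genes listed for myeloma bone disease showed no common direction. Of 31 listed, which include CCL3, 15 passed the filter, 7 of them higher with HIF2A and 8 lower, and their median was -0.02. None of the 15 reached 2-fold. Over all genes past the filter 0.706% did so upwards and 0.732% downwards. ADM, the gene of the vessel-widening peptide adrenomedullin and a known HIF target, had 9.18 in the HIF2A array and 8.25 in the vector control. BMP2, a bone-forming growth factor gene, had 5.05 in the HIF2A array and 4.41 in the vector control, and the Notch ligand gene JAG1 had 4.99 and 4.38. Lower in the HIF2A array were SFRP1, the gene of a Wnt inhibitor, at 5.90 against 6.59, and the growth factor gene HGF, at 6.44 against 7.06. TNFSF11, which encodes the osteoclast factor RANKL, had 3.50 in the HIF2A array, in the background range, and 4.11 in the vector control. CCL20, DKK1 and IL6, which encode a chemokine, a Wnt inhibitor and a plasma cell growth factor tied to this disease, lay in the background range in both arrays.

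Of the plasma cell markers 11 of 12 passed the filter, 5 higher and 6 lower, with a median of -0.04. SLAMF7 and TNFRSF17 were 2-fold or more lower, at 4.24 against 6.63 and 7.68 against 8.71, and POU2AF1, a B cell coactivator gene, had -0.30. Of all genes past the filter, 0.732% were 2-fold or more lower. At the upper end were MZB1, a chaperone gene of antibody secretion, at 0.44, XBP1, a transcription factor gene of secretory cells, at 0.34, and DERL3, a gene of protein disposal from the endoplasmic reticulum, at 0.31. T and NK cell markers had a median of 0.34 over 3 genes past the filter, GZMB at 0.36, NKG7 at 0.34 and CD8A at -0.03, and 8 of the 12 were in the background range in both arrays. GZMB passed the filter through its HIF2A value alone, 4.12 against 3.76 in the vector control. Over all 12, dim ones included, the median was 0.15. Stromal markers had 0.27 for COL1A2 and -0.13 for COL1A1, with 5 of 8 in the background range in both arrays. COL1A2 too passed the filter through its HIF2A value alone, 4.07 against 3.80 in the vector control.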
